A study of Homo sapiens with 8 samples.

Results

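The effect of removing LY6K-AS, a long non-coding RNA, was set against the effect of removing YWHAG, the gene of the 14-3-3 gamma protein, to find which genes and functions moved alike and which moved oppositely. All 8 of the 8 libraries of the series entered the comparison, 2 in each of 4 groups. A gene was included when it reached 0.5 RPKM (reads per kilobase of merged exons, scaled to library size) in at least 2 libraries of the LNA experiment and in at least 2 of the siRNA experiment, which left 12861 of 66206 listed identifiers. All libraries came from A549, an established line of human lung adenocarcinoma cells, transfected with the same lipid reagent. The groups were 25 pmol of a scramble LNA-GapmeR (an antisense oligonucleotide with locked nucleic acid ends that directs cleavage of its target RNA), 25 pmol of an LNA-GapmeR against LY6K-AS, 40 pmol of a scramble siRNA and 40 pmol of an siRNA against YWHAG. The knockdown libraries are titled LNA1 and LNA3, and si1 and si2. Whether these are separate oligonucleotides or separate cultures is not said, so the p-values speak of the spread between these libraries alone, which may be technical.

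The 14-3-3 proteins are dimeric adaptors that bind phosphorylated serine and threonine on many partners, among them CDC25 phosphatases, RAF kinases and FOXO transcription factors, and thereby hold these partners in the cytoplasm or change their activity. SFN encodes the sigma member of the family, which is induced by p53 and restrains entry into mitosis. LY6K-AS is transcribed antisense to LY6K, a gene of the LY6 family of GPI-anchored surface proteins. Many genes of the last stages of the cell cycle are switched together, since the DREAM and MMB complexes and FOXM1 act at promoters that carry the cell cycle homology region and CCAAT boxes, while the E2F factors act at promoters of S phase genes.

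Each effect was a log2 ratio of knockdown over control within 1 experiment, on the log2(RPKM + 1) scale, which understates changes of low genes. The difference was the LY6K-AS effect minus the YWHAG effect, and the mean was their average. Both were taken from a limma fit to all 8 libraries, with Benjamini-Hochberg adjustment over the 12861 genes and a threshold of 0.05. The ± values are standard errors with 2 libraries a group, from a spread per gene that all 4 groups of both experiments share. The comparisons share no library. The experiments were deposited as tables normalized separately, so levels are read within an experiment unless stated.

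The target of the siRNA was depleted, while that of the gapmer was barely measurable. YWHAG (chr7:76326794-76359031, minus strand, hg38) had 143 and 145 RPKM in the LNA controls, 133 and 101 after LY6K-AS knockdown, 163 and 158 in the siRNA controls and 13.5 and 4.91 after YWHAG knockdown. Its YWHAG effect was -4.12 ± 0.37 (limma adjusted p = 0.0109), with 5.75% of the control RPKM left. After LY6K-AS knockdown 81.3% of it was left, and this effect of -0.31 ± 0.37 did not pass (adjusted p = 0.645). Its standard error is shared with the siRNA experiment, where the knockdown libraries lay far apart, at 13.5 and 4.91 RPKM. Both LY6K-AS libraries were below both LNA controls. LY6K-AS was taken as LNCOC1, the annotated minus-strand RNA that overlaps LY6K on chromosome 8. It stayed under the expression minimum. The gapmer libraries held 3 and 8 of its reads where their controls held 34 and 17, so that 24.0% of the control RPKM was left. The siRNA controls gave 35 and 30 reads of it, and the YWHAG libraries 14 and 42, which overlap. LY6K itself had 35 and 42 reads against 53 and 55 in the LNA experiment, and 11 and 18 against 23 and 4 in the siRNA experiment. Nothing in the sources used here says whether counting used strand, so reads of LY6K and LNCOC1 cannot be told apart where they overlap.

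The libraries held 26179600 to 34560200 reads by the step size of their RPKM values. Of the 12 epithelial and lung markers checked, KRT8 and KRT18 were at 230.4 RPKM or more in every library, while NKX2-1, SFTPB, SFTPC and AQP5 reached at most 0.0711 RPKM. Markers of other cell types were low: 6 of 7 immune, 5 of 7 fibroblast and 6 of 6 endothelial genes were under 0.5 RPKM in all libraries, with CD3E and HLA-DRA at 0 reads. Transcripts of the mitochondrial genome took 8.43 and 6.43% of reads in LNA controls, 8.37 and 4.12% in LY6K-AS, 15.3 and 18.2% in siRNA control and 13.99 and 18.2% in YWHAG libraries. In bulk RNA, fewer cells of a kind and less RNA per cell cannot be told apart.

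The effects of the knockdowns were nearly unrelated across all genes. Over 12861 genes, Pearson's r was 0.10 and Spearman's rho 0.11, and 53.9% of genes had the same sign, 32.1% lower and 21.9% higher in both. Genes are not independent replicates, so these describe the libraries. Between single libraries, r was 0.18 and 0.12 for the LY6K-AS libraries against the first YWHAG library, and -0.02 and 0.01 against the second.

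More genes passed in the mean of the effects than in their difference, though 1 large effect can carry a mean. The mean of both effects passed for 117 genes (0.91% of those tested), 55 higher (0.428%) and 62 lower (0.482%). Of these 117 genes, 108 had the same sign in both effects, 61 lower and 47 higher, where 53.9% of all genes had the same sign. In 96 of them all 4 knockdown libraries lay beyond both of their own controls in that direction, 58 lower and 38 higher, where 11.7% and 6.38% of all tested genes did so. The 61 and the 58 lower genes include YWHAG, the target of the siRNA, with a mean of -2.21 ± 0.26 (limma adjusted p = 0.0404). The mean and the difference both passed for 8 genes, GNPNAT1, KLHL2, ACTL8, SETD7, PDCD4, LCLAT1, FAM89A and AL391121.1, in each of which 1 effect was far larger than the other. The difference passed for 23 genes (0.179%), 6 higher after LY6K-AS knockdown than after YWHAG knockdown (0.0467%) and 17 lower (0.132%). Of these 23 genes 21 had opposite signs, where 20.1% of all genes were lower and then higher and 25.9% the reverse. In 18 all 4 knockdown libraries lay beyond their own controls in opposite directions, as in 6.1% and 8.3% of all genes. Genes chosen by their mean lean to like signs and genes chosen by their difference to opposite signs. These counts therefore describe the called genes and are no separate support. A further split of the same fit gave 64 genes for the LY6K-AS effect alone (0.498%) and 214 for the YWHAG effect alone (1.66%), 140 higher (1.09%) and 74 lower (0.575%). No gene passed in both single effects in the same direction. SFN and SNORD69 passed both as higher after LY6K-AS and lower after YWHAG knockdown, and AC245041.1 as the reverse. Leaving out any 1 control library, or the second LY6K-AS library, took both the 23 and the 117 to 0, while 1297 to 2516 and 1671 to 2947 genes then still had an unadjusted p under 0.05. Leaving mitochondrially encoded genes out of the library totals left 5 of the 23.

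Genes that passed in the mean were not equally far from 0 in both effects. The 62 lower had medians of -0.91 after LY6K-AS and -0.52 after YWHAG knockdown, and the 55 higher 0.45 and 0.91.

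**Figure D1:**
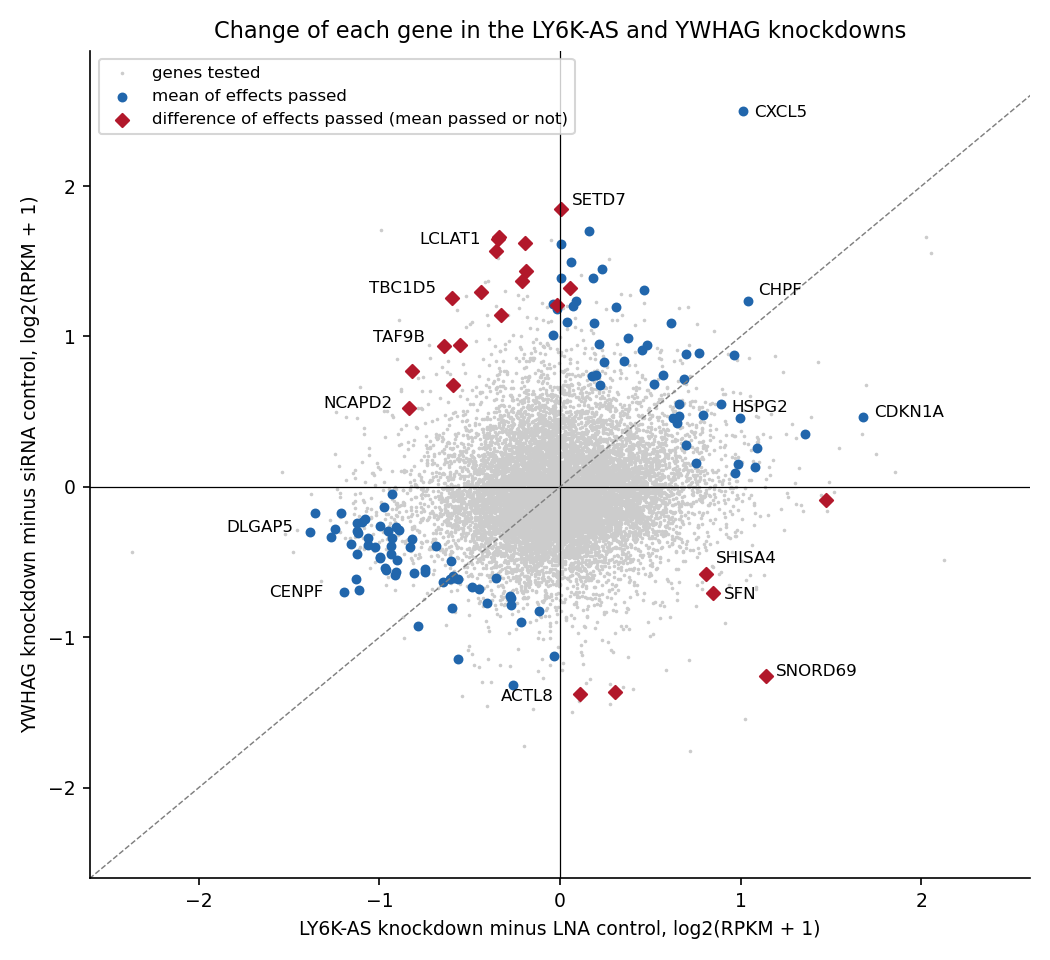
Each point is 1 of 12861 genes, with its LY6K-AS effect (horizontal axis, log2 of knockdown over control on the RPKM + 1 scale) and its YWHAG effect (vertical axis, same scale). Blue points passed in the mean of both effects but not in the difference, and lie mostly in the corners of like sign, on either side of the dashed line of equal change. Red diamonds passed in the difference, whether or not the mean passed, and lie mostly in the corners of opposite sign. YWHAG itself is outside the axes.

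Genes that fell in the mean of both effects included many of cell division. Of the 62 genes that fell in the mean, 27 belonged to lists for mitosis, replication, recombination and their regulators. These lists hold 195 of the 12861 genes tested. None of their genes passed as lower in the YWHAG effect alone. CENPF, a large kinetochore protein of G2 and mitosis (chr1:214603195-214664588 on hg38, GENCODE 29), had 20.9 and 21.3 RPKM in the LNA controls, 9.77 and 7.64 after LY6K-AS knockdown, 34.04 and 27.7 in the siRNA controls and 20.02 and 17.1 after YWHAG knockdown. All 4 knockdown libraries were below their own controls, and the control and knockdown libraries did not overlap. Its LY6K-AS effect was -1.19 ± 0.16 (limma adjusted p = 0.0451), its YWHAG effect -0.70 ± 0.16 (adjusted p = 0.0829) and the mean -0.95 ± 0.11 (adjusted p = 0.0404).

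ATAD2, a bromodomain ATPase that works with E2F and MYC at replicating chromatin, had 15.2 and 15.2 RPKM in the LNA controls, 7.37 and 5.66 after LY6K-AS knockdown, 24.4 and 20.95 in the siRNA controls and 13.1 and 14.3 after YWHAG knockdown. The knockdown libraries were again the lowest of each experiment, and the mean effect was -0.90 ± 0.10 (limma adjusted p = 0.0404). RACGAP1, a subunit of the centralspindlin complex of cytokinesis, went from 26.6 and 26.6 to 13.4 and 10.01 RPKM in the LNA experiment and from 33.6 and 28.4 to 21.1 and 18.8 in the siRNA experiment, a mean of -0.87 ± 0.11 (adjusted p = 0.0438). In CENPF, ATAD2 and RACGAP1 the LY6K-AS effect was the larger in size, but their differences of -0.49, -0.43 and -0.52 did not pass (adjusted p = 0.274, 0.29 and 0.255).

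Other genes fell in the mean with nearly equal effects. NIF3L1, a conserved protein of uncertain function, went from 17.6 and 17.6 to 12.3 and 10.2 RPKM after LY6K-AS knockdown and from 25.7 and 23.4 to 15.01 and 16.3 after YWHAG knockdown, with effects of -0.61 and -0.62. UNG, the uracil DNA glycosylase of base excision repair, went from 48.5 and 48.4 to 33 and 30.9 and from 34.4 and 32.2 to 23.7 and 19.6, with effects of -0.59 and -0.60. H2AFV, the histone variant H2A.Z.2, went from 36.4 and 37.5 to 26.1 and 22.5 and from 26.7 and 26.5 to 17.98 and 16.7, with -0.59 and -0.59. PPIH, a cyclophilin of the spliceosome, went from 19.2 and 17.4 to 13.04 and 11.1 and from 14.5 and 12.8 to 8.68 and 8.42, with -0.57 and -0.62; it was chosen after its values were seen. In these 4 genes the groups did not overlap in either experiment, and the limma adjusted p of the mean was 0.0442, 0.0442, 0.0438 and 0.0442.

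CCDC77, a centrosomal coiled-coil protein, had effects of -0.65 and -0.63 (limma adjusted p of the mean = 0.0438). Its span overlaps that of KDM5A, and their reads cannot be told apart where they overlap. TROAP, a spindle-associated protein also called tastin, had -0.91 and -0.58. KNSTRN, the kinastrin subunit of the astrin complex at kinetochores, had -0.91 and -0.57. TICRR, the treslin protein that loads CDC45 at origins, had -0.81 and -0.57, and overlaps KIF7. The limma adjusted p of the mean was 0.0438, 0.0442 and 0.0486 for these, and all 4 knockdown libraries were below their controls in each.

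The 55 genes that rose in the mean are described by those that met the naming rule. CHPF, a chondroitin polymerizing factor of the Golgi (chr2:219538947-219543787), had 14.6 and 15.9 RPKM in the LNA controls, 28.1 and 37.4 after LY6K-AS knockdown, 2.97 and 3.86 in the siRNA controls and 9.54 and 9.16 after YWHAG knockdown. The groups were far apart in both experiments, with a 2.15-fold and a 2.74-fold higher mean RPKM. Its effects were 1.04 ± 0.17 and 1.24 ± 0.17, and the mean was 1.14 ± 0.12 (limma adjusted p = 0.0404). CXCL5, a chemokine that attracts neutrophils, had 64.9 and 68.6 RPKM in the LNA controls, 210.5 and 87.4 after LY6K-AS knockdown, 16.3 and 19.02 in the siRNA controls and 126 and 86.2 after YWHAG knockdown. The first LY6K-AS library stood well above the second, and the YWHAG libraries were both far above their controls, so the mean of 1.76 ± 0.27 (adjusted p = 0.0442) rests on unequal effects of 1.01 and 2.5. Their difference of -1.49 ± 0.53 did not pass (adjusted p = 0.188).

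SLFN5, an interferon-inducible Schlafen protein, went from 1.53 and 1.53 to 3.51 and 4.40 RPKM after LY6K-AS knockdown and from 4.15 and 3.28 to 8.58 and 6.78 after YWHAG knockdown. CADM4, an adhesion molecule of the immunoglobulin family, went from 10.4 and 10.96 to 15.9 and 22.3 and from 3.20 and 2.83 to 6.11 and 6.80. RAB3B, a small GTPase of regulated secretion, went from 4.63 and 4.91 to 8.21 and 8.31 and from 2.13 and 1.69 to 4.28 and 3.29. Each was higher in all 4 knockdown libraries than in any of its own controls, with a mean effect of 0.92, 0.83 and 0.70 (limma adjusted p = 0.0432, 0.0438 and 0.0438).

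The basement membrane proteins NTN4 (netrin-4) and HSPG2 (perlecan) also rose in the mean. NTN4 went from 20.8 and 21.3 to 37.2 and 28.9 RPKM and from 12.5 and 11.6 to 27.8 and 25.6, with effects of 0.62 and 1.09. HSPG2 went from 30.9 and 35.2 to 59.4 and 64.7 and from 5.31 and 4.80 to 8.52 and 7.29, with 0.89 and 0.55. The groups did not overlap in either gene, and the limma adjusted p of the mean was 0.0404 and 0.0438. ADAM15, a membrane-bound metalloprotease, and CAVIN2, a coat protein of caveolae, had means of 0.60 and 0.71 (adjusted p = 0.0438 and 0.0485).

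**Figure D2:**
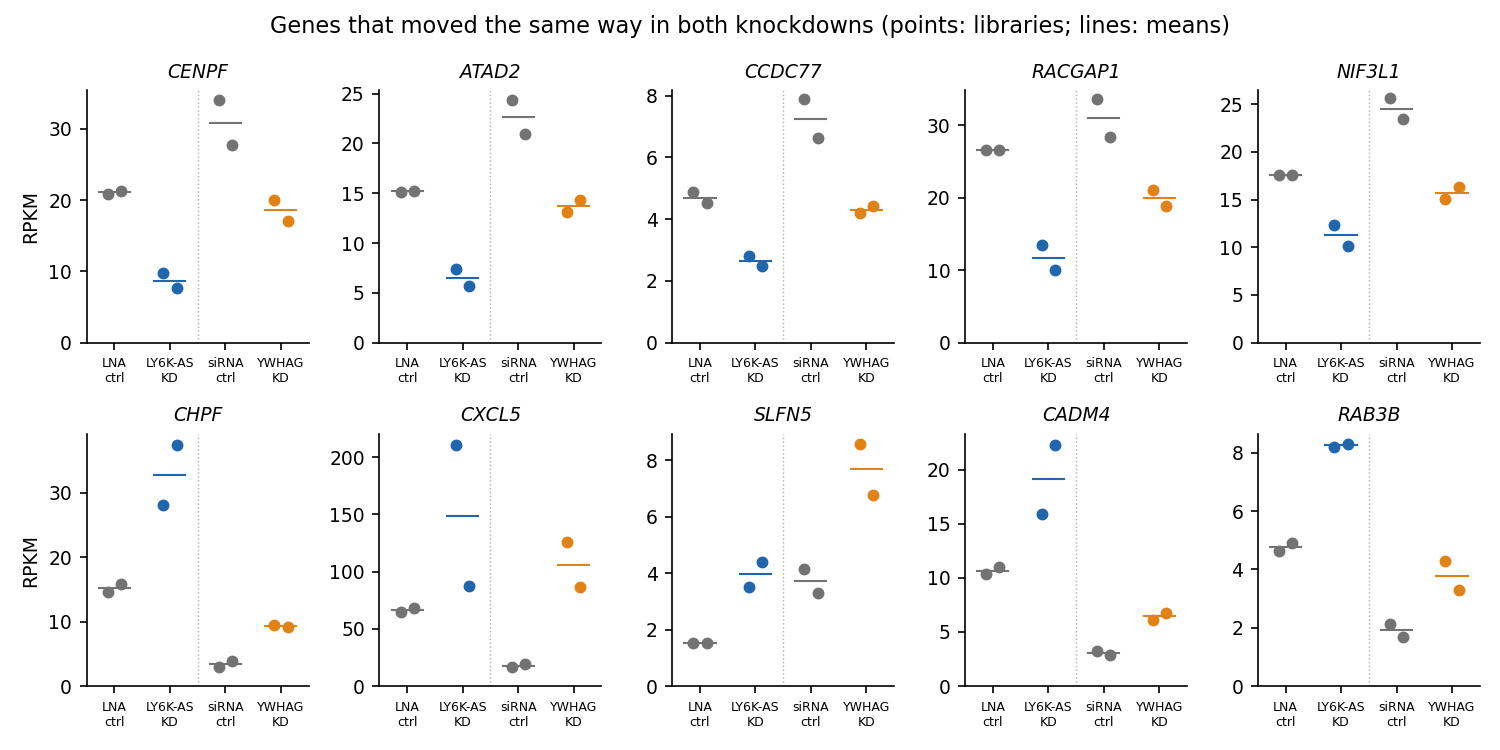
RPKM per library (vertical axes, linear, from 0) of 5 genes lower and 5 genes higher after both knockdowns, with points for the 2 libraries of a group and lines for group means. In each panel the knockdown points lie on the same side of their own controls in both experiments; levels are not comparable between experiments, which were normalized separately.

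The lists for mitosis had negative medians in both effects, further from 0 after LY6K-AS knockdown, and their calls came from LY6K-AS knockdown or the mean. Of 29 measured genes of the spindle, kinesins and cytokinesis, 27 were lower in both effects and 23 had all 4 knockdown libraries below their controls. Their median was -1.02 after LY6K-AS and -0.30 after YWHAG knockdown, against -0.02 and -0.05 over all genes. The mean passed for 8 of the 29, all lower, beside 0.482% of all genes. The difference passed for 0, with 20 lower at an unadjusted p under 0.05, as were 8.86% of all genes. Single libraries gave medians of -0.77 and -1.25 for LY6K-AS and -0.27 and -0.31 for YWHAG. Of 35 kinetochore and centromere genes, 27 were lower in both and 5 passed in the mean, with medians of -0.82 and -0.21. Of 15 genes of the spindle checkpoint and chromosomal passengers, 14 were lower in both and 2 passed, with medians of -0.94 and -0.25. Of 30 genes of G2/M entry, condensin and cohesin, 23 were lower in both and 9 passed, with medians of -0.91 and -0.20. In the order given, 7, 4, 2 and 10 genes of these lists passed as lower in the LY6K-AS effect, beside 0.303% of all genes. None passed in the YWHAG effect, where 6, 4, 3 and 6 were lower at an unadjusted p under 0.05, beside 11.8% of all genes.

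Among the members, DLGAP5, a spindle assembly factor, went from 18.9 and 19.3 to 8.01 and 5.56 RPKM after LY6K-AS knockdown and from 32.7 and 28.3 to 25.1 and 24.03 after YWHAG knockdown. The YWHAG libraries were below their controls but closer to them, with an effect of -0.30 ± 0.17 beside -1.38 ± 0.17, and the mean passed (limma adjusted p = 0.0438). KIF2C, a kinesin that depolymerizes microtubules at kinetochores, went from 16.5 and 16.05 to 8.23 and 7.12 and from 17.6 and 16.1 to 11.9 and 11.8, and all 4 knockdown libraries were below their controls. Its mean was -0.73 ± 0.08 (adjusted p = 0.0404). The checkpoint kinase BUB1 and the passenger kinase AURKB had means of -0.76 and -0.71 (limma adjusted p = 0.0442 and 0.0438). Their LY6K-AS effects were -1.25 and -1.02. Their YWHAG effects of -0.28 and -0.40 did not pass (adjusted p = 0.39 and 0.194). CCNB1, the mitotic cyclin B1, went from 89.4 and 83.7 to 50.1 and 36.6 and from 118 and 106 to 81.5 and 80.1, with a mean of -0.73 (adjusted p = 0.0442). TOP2A, the topoisomerase that untangles chromosomes, went from 126 and 128 to 56.7 and 41.99 after LY6K-AS knockdown but from 137 and 122 to 121 and 108 after YWHAG knockdown, where the groups lay close together. Its mean passed (adjusted p = 0.0442) through a LY6K-AS effect of -1.36 beside a YWHAG effect of -0.18.

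The promoters of DLGAP5, KPNA2 and CEP55 of the spindle list are shown because the motifs that define cell cycle promoters lie close together in them. Their capitals mark the cell cycle homology region (TTTGAA, or TTCAAA as its reverse complement) and CCAAT. For MCM6 and RFC3 of the replication list, capitals mark an E2F word (TTTGGCGC or TTTCCCGC, either strand). Each run is the coding strand of its gene, 5′ to 3′, ending at the base before the annotated start, from RefSeq on GRCh38.p14.
DLGAP5 (chr14:55191586-55191705, minus strand): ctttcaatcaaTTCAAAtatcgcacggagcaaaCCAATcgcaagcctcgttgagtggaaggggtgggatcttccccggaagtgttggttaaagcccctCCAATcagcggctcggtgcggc
KPNA2 (chr17:68035615-68035734, plus strand): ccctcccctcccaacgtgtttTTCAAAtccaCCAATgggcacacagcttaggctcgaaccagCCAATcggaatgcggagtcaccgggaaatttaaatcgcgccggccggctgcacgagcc
CEP55 (chr10:93496492-93496611, plus strand): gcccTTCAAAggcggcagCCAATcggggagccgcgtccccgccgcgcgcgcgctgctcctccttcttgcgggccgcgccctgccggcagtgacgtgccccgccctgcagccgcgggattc
MCM6 (chr2:135876444-135876563, minus strand): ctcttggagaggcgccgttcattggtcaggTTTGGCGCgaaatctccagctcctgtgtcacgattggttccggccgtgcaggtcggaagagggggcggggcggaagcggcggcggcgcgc
RFC3 (chr13:33818029-33818148, plus strand): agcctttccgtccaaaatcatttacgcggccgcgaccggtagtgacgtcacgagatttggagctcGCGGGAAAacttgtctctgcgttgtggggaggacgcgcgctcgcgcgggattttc

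The shares of promoters with these words were counted in the 250 bases before the start, on both strands. A promoter was matched by symbol for 9090 of the 12861 genes. TTTGAA lay in 57.7% of 26 spindle promoters, 44% of 25 G2/M promoters and 21.4% of 28 kinetochore promoters, against 7.80% of all 9090. It lay in 28.6% of the 49 matched genes that fell in the mean and in 0 of the 43 that rose. CCAAT lay in 76.9% of spindle promoters and 57.1% of those that fell in the mean, against 35.1% of all. The E2F words lay in 28.9% of 38 replication promoters, against 3.38% of all. These are matches of letters, and binding was not measured. KPNA2, an importin that carries spindle factors, had 149.6 and 147 RPKM in the LNA controls, 84.4 and 70.98 after LY6K-AS knockdown, 305 and 252 in the siRNA controls and 227 and 211 after YWHAG knockdown, and all 4 knockdown libraries were below their controls. Its mean was -0.63 ± 0.10 (limma adjusted p = 0.0485), and that of CEP55, a midbody protein of abscission, was -0.67 ± 0.11 (adjusted p = 0.0487).

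Genes of S phase were mostly lower in both effects by sign, but in the YWHAG effect no more often past an unadjusted p than all genes. Of 45 DNA replication genes 34 were lower in both effects, 15 had all 4 knockdown libraries below their controls, and 2 passed in the mean. The list's median was -0.68 after LY6K-AS and -0.20 after YWHAG knockdown, but the YWHAG libraries alone gave -0.37 and 0.07. In the YWHAG effect 0 passed and 4 of 45 were lower at an unadjusted p under 0.05, where 11.8% of all genes were. RRM2, the small subunit of ribonucleotide reductase, went from 47.5 and 48.8 to 20.2 and 18.7 RPKM and from 57.8 and 51.1 to 40.1 and 46.2, with a mean of -0.80 ± 0.09 (limma adjusted p = 0.0404). MCM6, a subunit of the replicative helicase, went from 44.9 and 44.9 to 26.5 and 18.9 and from 45.5 and 40.3 to 29.2 and 29.1, and its mean was -0.76 ± 0.12 (adjusted p = 0.0442). In both genes the knockdown libraries lay below their controls. RFC3, a subunit of the clamp loader, had a mean of -0.64 that did not pass (adjusted p = 0.0892). Of 22 genes of homologous recombination and the Fanconi pathway, 19 were lower in both and 0 passed in the mean. At an unadjusted p under 0.05, 18 were lower in the mean, as were 14.4% of all genes. In the YWHAG effect 0 passed, with 3 lower at an unadjusted p under 0.05, beside 11.8% of all genes. Their YWHAG libraries gave medians of -0.44 and 0.05.

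Among 19 regulators of the E2F and DREAM group, 15 were lower in both effects, with medians of -0.32 and -0.29, and of -0.14 and -0.29 with the GC trend described below removed. FOXM1, the transcription factor of G2 and M genes, had effects of -0.75 and -0.56. Its mean of -0.66 ± 0.10 passed (limma adjusted p = 0.0442), the only 1 of the 19 to do so. E2F1 had -0.59 and -0.78, and its mean of -0.69 ± 0.13 did not pass (adjusted p = 0.055). CCNE2, the cyclin E2 of S phase entry, belongs to another list. It had -0.28 and -0.73, with a mean of -0.50 (limma adjusted p = 0.0442). Its YWHAG effect passed by itself (adjusted p = 0.0296). It was low, at 1.86 RPKM or less in all libraries, where the RPKM + 1 scale understates changes. CDC25C, a phosphatase that activates CDK1 and a known 14-3-3 partner, is also outside the 19. Its mean was -0.59 (limma adjusted p = 0.0442). In CCNE2 the YWHAG effect was the larger in size and in FOXM1 the LY6K-AS effect, but their differences of 0.45 and -0.18 did not pass (adjusted p = 0.166 and 0.635). CCNE2 overlaps INTS8 and NDUFAF6, FOXM1 overlaps ITFG2 and RHNO1, and CDC25C overlaps FAM53C, so reads there cannot be told apart. The same holds for FAS, MDM2, HELLS, PDCD4, MRE11, AC245041.1 and AL391121.1, whose spans also overlap other tested genes.

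Base composition moved with the LY6K-AS effect. Its rank correlation with the GC content of exons was 0.40 and 0.53 in the LY6K-AS libraries, and 0.04 and -0.01 in the YWHAG libraries. The mean GC content was 44.8% in the spindle list and 48.4% in the replication list, against 49.2% over all genes. With a smooth GC trend removed from each library, the LY6K-AS medians were -0.92 for the spindle list and -0.69 for the replication list, nearly as large as with it.

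**Figure D3:**
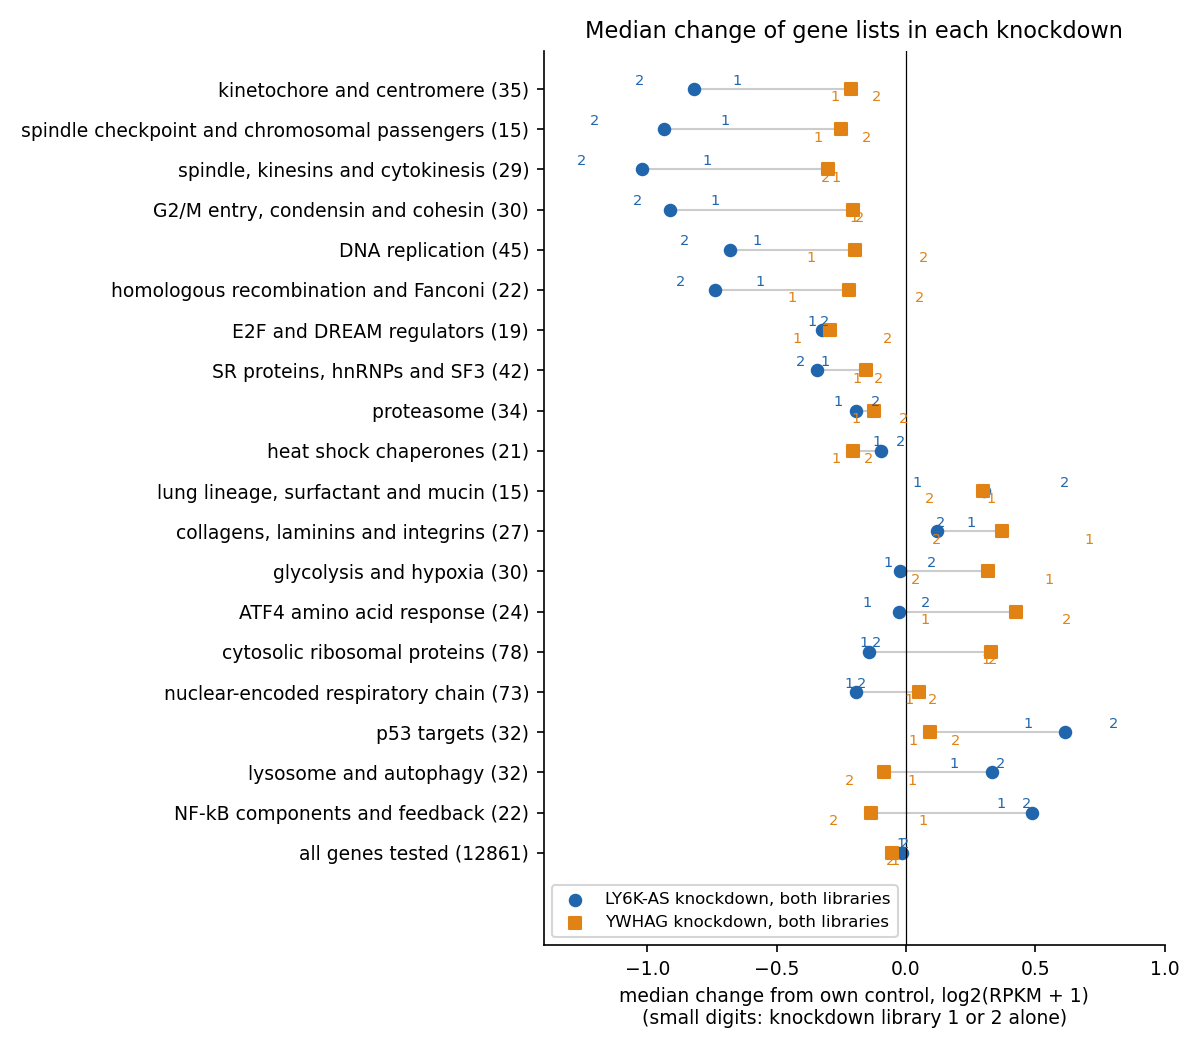
Median effect (horizontal axis, log2 of knockdown over control on the RPKM + 1 scale) of 19 gene lists and of all genes tested, with circles for LY6K-AS and squares for YWHAG knockdown and small digits for each knockdown library alone. The division lists lie left of 0 in both, ribosomal proteins lie left for LY6K-AS and right for YWHAG, and the digits show where the YWHAG libraries fall on either side of 0.

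The p53 targets had a high median after LY6K-AS knockdown and one near 0 after YWHAG knockdown. Of 32 measured, 19 were higher in both effects and 12 higher after LY6K-AS and lower after YWHAG knockdown, with medians of 0.62 and 0.09. The mean passed for 1 of them and the difference for 0, with 20 and 17 at an unadjusted p under 0.05, beside 25.2% and 20.4% of all genes. CDKN1A, the p21 inhibitor of cyclin-dependent kinases and a member of another list, had 59.7 and 59.02 RPKM in the LNA controls, 158 and 234 after LY6K-AS knockdown, 33.7 and 34.3 in the siRNA controls and 43.3 and 51.7 after YWHAG knockdown. All 4 knockdown libraries were above their controls, far more so in the LNA experiment. Its effects were 1.68 ± 0.19 (limma adjusted p = 0.0451) and 0.47 ± 0.19 (adjusted p = 0.234), the mean passed (adjusted p = 0.0438) and the difference of 1.21 did not (adjusted p = 0.0971). GADD45A, a growth arrest protein, went from 14.8 and 15.8 to 34.1 and 48.7 and from 6.36 and 6.24 to 7.71 and 8.98 RPKM, with a mean of 0.85 ± 0.12 (adjusted p = 0.0438). FAS, the death receptor, went from 3.34 and 2.78 to 4.86 and 6.59 and from 5.41 and 5.91 to 7.85 and 9.93, with near equal effects of 0.72 and 0.56 and a mean that did not pass (adjusted p = 0.0566). MDM2, the ubiquitin ligase of p53, had 0.82 and -0.33, neither of which passed (adjusted p = 0.124 and 0.498).

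Splicing and proteasome genes had slightly negative medians in both effects. Of 42 SR proteins, hnRNPs and SF3 subunits, 33 were lower in both effects and 17 had all 4 knockdown libraries below their controls, against 11.7% of all genes. The medians were -0.34 and -0.16, and 0 passed in the mean, with 25 lower at an unadjusted p under 0.05, as were 14.4% of all genes. In the YWHAG effect alone 1 of 42 was lower at an unadjusted p under 0.05, and with the GC trend removed the LY6K-AS median was -0.23. HNRNPU, a nuclear scaffold protein, had 49.7 and 53.5 RPKM in the LNA controls, 39.96 and 39.6 after LY6K-AS knockdown, 99.2 and 93.4 in the siRNA controls and 79.7 and 71.8 after YWHAG knockdown. The groups did not overlap in either experiment, and its mean of -0.35 ± 0.08 did not pass (limma adjusted p = 0.0762). Of 34 proteasome genes, 10 had all 4 knockdown libraries below their controls, with medians of -0.19 and -0.12 and 0 passing in the mean (12 at an unadjusted p under 0.05). In the YWHAG effect 3 of the 34 were lower at an unadjusted p under 0.05, beside 11.8% of all genes.

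The difference passed as higher after LY6K-AS than after YWHAG knockdown for only 6 genes. Their median GC content was 63.4%, against 48.2% over all genes. With the GC trend removed, 3 genes passed in this direction. SFN, the 14-3-3 sigma gene (chr1:26863138-26864457), had 161 and 164 RPKM in the LNA controls, 292 and 295 after LY6K-AS knockdown, 86.1 and 93.7 in the siRNA controls and 50.7 and 58.9 after YWHAG knockdown. The LY6K-AS libraries were far above their controls, the YWHAG libraries below theirs, and no groups overlapped. Its LY6K-AS effect was 0.85 ± 0.12 (limma adjusted p = 0.0461), its YWHAG effect -0.71 ± 0.12 (adjusted p = 0.0456) and the difference 1.56 ± 0.17 (adjusted p = 0.0443). SHISA4, a transmembrane protein of the Shisa family, went from 8.82 and 9.79 to 16.4 and 17.7 and from 5.38 and 5.37 to 3.51 and 3.04 RPKM. It too had no overlap between groups, and its difference was 1.38 ± 0.17 (limma adjusted p = 0.0492). Unlike that of SFN, its YWHAG effect of -0.58 did not pass (adjusted p = 0.0655), while its LY6K-AS effect of 0.81 did (adjusted p = 0.0465). Only these 2 genes met every condition for naming in this direction.

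The other 6 genes of the 14-3-3 family, YWHAG included, were lower in both effects. YWHAQ, the theta member, had -0.32 and -0.65, YWHAZ, the zeta member, -0.46 and -0.39, and YWHAE, the epsilon member, -0.50 and -0.16. None of these effects passed (limma adjusted p from 0.124 to 0.59). The medians of all 7 were -0.32 and -0.39.

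Further genes had the same opposite pattern without passing. HOXC13, a homeobox factor of hair and nail, went from 4.59 and 5.22 to 10.8 and 13.1 RPKM and from 5.95 and 4.80 to 2.84 and 3.67, and its difference was 1.71 ± 0.23 (limma adjusted p = 0.0526). TNFAIP3, the A20 protein that ends NF-kB signalling, went from 1.59 and 1.77 to 3.43 and 3.64 and from 5.03 and 4.77 to 3.30 and 2.27, with a difference of 1.41 ± 0.21 (adjusted p = 0.0577). In both genes all knockdown libraries lay beyond their controls. CORO2A, an actin-binding coronin, ABHD17C, a depalmitoylating enzyme, and EVPL, an envoplakin of the epidermal envelope, had differences of 1.29, 1.35 and 1.23 (adjusted p = 0.054, 0.0576 and 0.0577). ACTL8, an actin-like gene of testis, passed by another route. It had 0.474 and 0.369 RPKM in the LNA controls, 0.533 and 0.538 after LY6K-AS knockdown, 2.72 and 2.69 in the siRNA controls and 0.435 and 0.413 after YWHAG knockdown, so the YWHAG libraries fell (-1.38 ± 0.10, adjusted p = 0.00803) while the LY6K-AS effect was 0.11 ± 0.10, and the difference was 1.49 ± 0.14 (adjusted p = 0.0377).

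The difference passed as lower for more genes, most of them with a negative LY6K-AS and a positive YWHAG effect. TAF9B, a subunit of TFIID and SAGA-type complexes (chrX:78129748-78139706), had 9.49 and 9.71 RPKM in the LNA controls, 6.06 and 5.51 after LY6K-AS knockdown, 6.99 and 6.33 in the siRNA controls and 13.2 and 14.1 after YWHAG knockdown. Every knockdown library lay beyond its controls, downward in the LNA and upward in the siRNA experiment. The effects were -0.64 ± 0.11 (adjusted p = 0.0594) and 0.94 ± 0.11 (adjusted p = 0.0216), and the difference was -1.58 ± 0.16 (limma adjusted p = 0.0386). TBC1D5, a GTPase-activating protein that turns off RAB7 with the retromer, went from 8.13 and 8.81 to 6.21 and 4.42 and from 2.14 and 1.95 to 6.67 and 5.93 RPKM, a difference of -1.86 ± 0.22 (adjusted p = 0.0492). FITM2, an endoplasmic reticulum protein of lipid droplet formation, went from 9.33 and 9.14 to 5.68 and 5.90 and from 3.99 and 3.85 to 6.49 and 7.29, a difference of -1.27 ± 0.16 (adjusted p = 0.0492). The LY6K-AS effects of TBC1D5 and FITM2 alone did not pass (adjusted p = 0.0964 and 0.0616).

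NCAPD2, a subunit of condensin I, was the member of the division lists that passed as opposite. It had 45.8 and 48.3 RPKM in the LNA controls, 27.7 and 24.2 after LY6K-AS knockdown, 25.6 and 22.9 in the siRNA controls and 36.1 and 34.4 after YWHAG knockdown. Its LY6K-AS effect was -0.84 ± 0.12 (limma adjusted p = 0.0465), its YWHAG effect 0.52 ± 0.12 (adjusted p = 0.0855) and the difference -1.36 ± 0.17 (adjusted p = 0.0492). It overlaps MRPL51, and their reads cannot be told apart where they do. Its promoter is shown for comparison with those of DLGAP5, KPNA2 and CEP55, with only the TTTGAA word in capitals. It carries this word as those 3 do, while its YWHAG effect had the other sign. The run also holds CCAAT as its reverse complement ATTGG, left in lower case.
NCAPD2 (chr12:6493952-6494101, plus strand, GRCh38.p14, RefSeq): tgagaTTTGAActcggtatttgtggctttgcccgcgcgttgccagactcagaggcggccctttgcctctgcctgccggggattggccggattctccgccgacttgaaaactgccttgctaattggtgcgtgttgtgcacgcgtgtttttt

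The YWHAG effect was the larger in size in further genes of this direction. CYCS, cytochrome c, went from 26.5 and 25.6 to 22.3 and 18.3 RPKM after LY6K-AS knockdown and from 17.4 and 18.4 to 60.9 and 49.7 after YWHAG knockdown, a difference of -1.92 ± 0.21 (limma adjusted p = 0.0436). LCLAT1, an acyltransferase of cardiolipin and phosphoinositide remodelling, went from 6.73 and 7.13 to 5.60 and 4.94 and from 1.66 and 1.66 to 7.29 and 7.50, a difference of -2.0 ± 0.16 (adjusted p = 0.0208). UBE2V2, a partner of the UBC13 ubiquitin-conjugating enzyme, went from 7.07 and 6.96 to 5.83 and 4.85 and from 3.14 and 3.22 to 9.93 and 14.6, a difference of -1.99 ± 0.25 (adjusted p = 0.0492). In all 3 the LY6K-AS libraries lay a little below their controls and the YWHAG libraries severalfold above theirs. NBN, the nibrin of the MRE11 complex at DNA breaks, went from 11.5 and 11.6 to 9.57 and 7.11 and from 5.68 and 5.48 to 14.9 and 15.4, a difference of -1.73 ± 0.20 (adjusted p = 0.0492), and overlaps DECR1. GALNT2, which starts O-linked glycosylation, went from 44.6 and 46.5 to 38.1 and 34.2 and from 13.8 and 13.2 to 30.9 and 30.8, a difference of -1.47 ± 0.16 (adjusted p = 0.0436). PTK2, the focal adhesion kinase, went from 13.2 and 13.2 to 12.4 and 10.3 and from 4.93 and 4.63 to 15.5 and 12.5, a difference of -1.58 ± 0.20 (adjusted p = 0.0492). These 3 likewise had no overlap between groups. Of CYCS, LCLAT1, UBE2V2, NBN, GALNT2 and PTK2 none passed in the LY6K-AS effect alone (adjusted p = 0.204, 0.14, 0.294, 0.139, 0.146 and 0.407).

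In some genes the difference passed with hardly any LY6K-AS effect. SETD7, a lysine methyltransferase, had 14.6 and 14.3 RPKM in the LNA controls, 14.6 and 14.5 after LY6K-AS knockdown, 3.25 and 3.08 in the siRNA controls and 15.5 and 12.5 after YWHAG knockdown. The LNA libraries were all alike and the YWHAG libraries were far above their controls, so the effects were 0.01 and 1.84 ± 0.13 (limma adjusted p = 0.00784). PDCD4, a repressor of translation initiation, and GNPNAT1, an enzyme of UDP-GlcNAc synthesis, had YWHAG effects of 1.21 and 1.62 beside LY6K-AS effects of -0.02 and -0.19. KLHL2, a ubiquitin ligase adaptor that overlaps TMEM192, had 1.43 beside -0.19, and FAM89A 1.33 beside 0.05.

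Levels in the controls moved with these calls. All 17 genes whose difference passed as lower had a lower log2(RPKM + 1) in the siRNA controls than in the LNA controls. So did 7499 of all 12861 genes. The median gap was -1.07 against -0.13 over all genes. This gap is itself a part of the difference, so genes chosen by a low difference lean to it, and the count is no separate support. After YWHAG knockdown the median gap to the LNA controls was 0.08, against -0.16 over all genes. A lower level in the siRNA than in the LNA controls was also seen in 47 of the 55 genes that rose in the mean, with a median gap of -0.99. The experiments were normalized separately, so these gaps also hold whatever else differed between them, and their part in the calls was not tested.

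**Figure D4:**
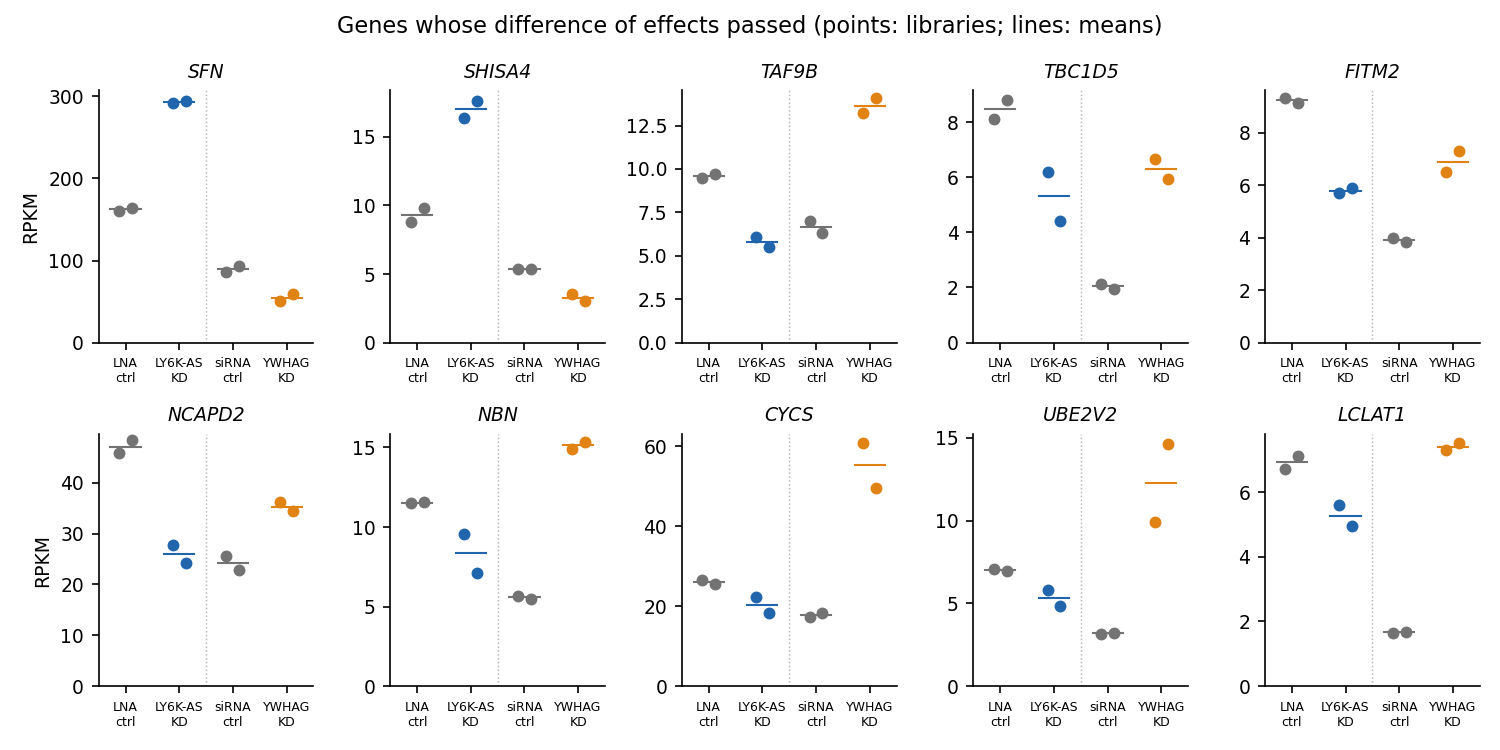
RPKM per library (vertical axes, linear, from 0) of 10 genes whose difference of effects passed, with points for the 2 libraries of a group and lines for group means. SFN and SHISA4 are above the controls after LY6K-AS and below them after YWHAG knockdown, and the other 8 are the reverse. YWHAG steps are larger than LY6K-AS steps in TAF9B, TBC1D5, NBN, CYCS, UBE2V2 and LCLAT1.

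Cytosolic ribosomal proteins were mostly opposite in sign, at small size. Of 78 measured, 58 were lower after LY6K-AS and higher after YWHAG knockdown, and in 40 all 4 knockdown libraries lay beyond their controls that way, against 20.1% and 6.1% of all genes. The medians were -0.14 and 0.33, with -0.16 and -0.11 in the LY6K-AS libraries and 0.31 and 0.34 in the YWHAG libraries. No member passed in the difference, and 43 had an unadjusted p under 0.05, as did 20.4% of all genes in either direction. RPS27A, which encodes ubiquitin fused to a small subunit protein, had 56.5 and 52.4 RPKM in the LNA controls, 32.9 and 33.4 after LY6K-AS knockdown, 337 and 340.5 in the siRNA controls and 419.7 and 370.0 after YWHAG knockdown. The groups did not overlap in either experiment, and the difference of -0.92 ± 0.17 did not pass (limma adjusted p = 0.0747). RPS15A of the small subunit had effects of -0.49 and 0.33, and RPL27A of the large subunit -0.54 and 0.35. RPL23A rose after YWHAG knockdown (0.68, adjusted p = 0.0325) beside a LY6K-AS effect of 0.07.

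Ribosomal protein genes have many processed pseudogenes, and RPS27A, RPL27A and RPL23A also overlap other tested genes, so their counts are uncertain. The list was also set far apart between the experiments: its siRNA control level was above the LNA control level by a median of 0.98 on the log2 scale. Of 73 nuclear-encoded genes of the respiratory chain, 34 were lower after LY6K-AS and higher after YWHAG knockdown, 10 with all libraries beyond their controls, beside 20.1% and 6.1% of all genes, and the medians were -0.19 and 0.05. NDUFB3, a subunit of complex I, had effects of -0.33 and 0.47 and a difference of -0.80 ± 0.19 (not past the threshold, limma adjusted p = 0.102), and overlaps FAM126B. No respiratory chain gene passed in the difference (11 at an unadjusted p under 0.05, where 20.4% of all genes had one). The 15 mitochondrially encoded genes had medians of -0.40 and -0.02, but the LY6K-AS libraries alone gave 0.11 and -0.89.

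NF-kB components and feedback genes had the reverse pattern. Of 22 measured, 16 were higher after LY6K-AS and lower after YWHAG knockdown, beside 25.9% of all genes, and in 4 all libraries lay beyond their controls that way, beside 8.3%. The medians were 0.49 and -0.13, with 0.07 and -0.28 in the single YWHAG libraries, and removing the GC trend took the LY6K-AS median to 0.27. None passed in the difference, and 11 had an unadjusted p under 0.05 as higher, beside 11.5% of all genes, and 1 as lower. NFKBIA, the IkB alpha inhibitor, had 26.8 and 27.9 RPKM in the LNA controls, 35.8 and 44.5 after LY6K-AS knockdown, 39.6 and 42.5 in the siRNA controls and 26.4 and 29.1 after YWHAG knockdown. The groups did not overlap, and the difference of 1.08 ± 0.19 did not pass (limma adjusted p = 0.0729). RELB, a subunit of the alternative pathway, had 1.24 and -0.28. IRAK2, a kinase below the interleukin 1 receptor, was higher in both, with 1.19 and 0.87 and a mean that did not pass (adjusted p = 0.0644).

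The promoters of TNFAIP3 and NFKBIA are shown because they are members with a motif match and values of opposite sign, with capitals for matches to the NF-kB motif on either strand.
TNFAIP3 (chr6:137867139-137867258, plus strand, GRCh38.p14, RefSeq): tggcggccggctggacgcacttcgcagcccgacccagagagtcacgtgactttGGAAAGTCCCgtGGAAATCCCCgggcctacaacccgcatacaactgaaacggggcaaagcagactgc
NFKBIA (chr14:35404750-35404869, minus strand, GRCh38.p14, RefSeq): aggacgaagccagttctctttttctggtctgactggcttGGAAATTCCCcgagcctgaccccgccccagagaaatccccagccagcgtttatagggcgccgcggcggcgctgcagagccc
A match lay in 35% of the 20 matched promoters of the list, against 6.06% of all 9090. The p53 motif, searched by its half-site, lay in 11.5% of 26 p53 target promoters, against 4.55% of all.

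**Figure D5:**
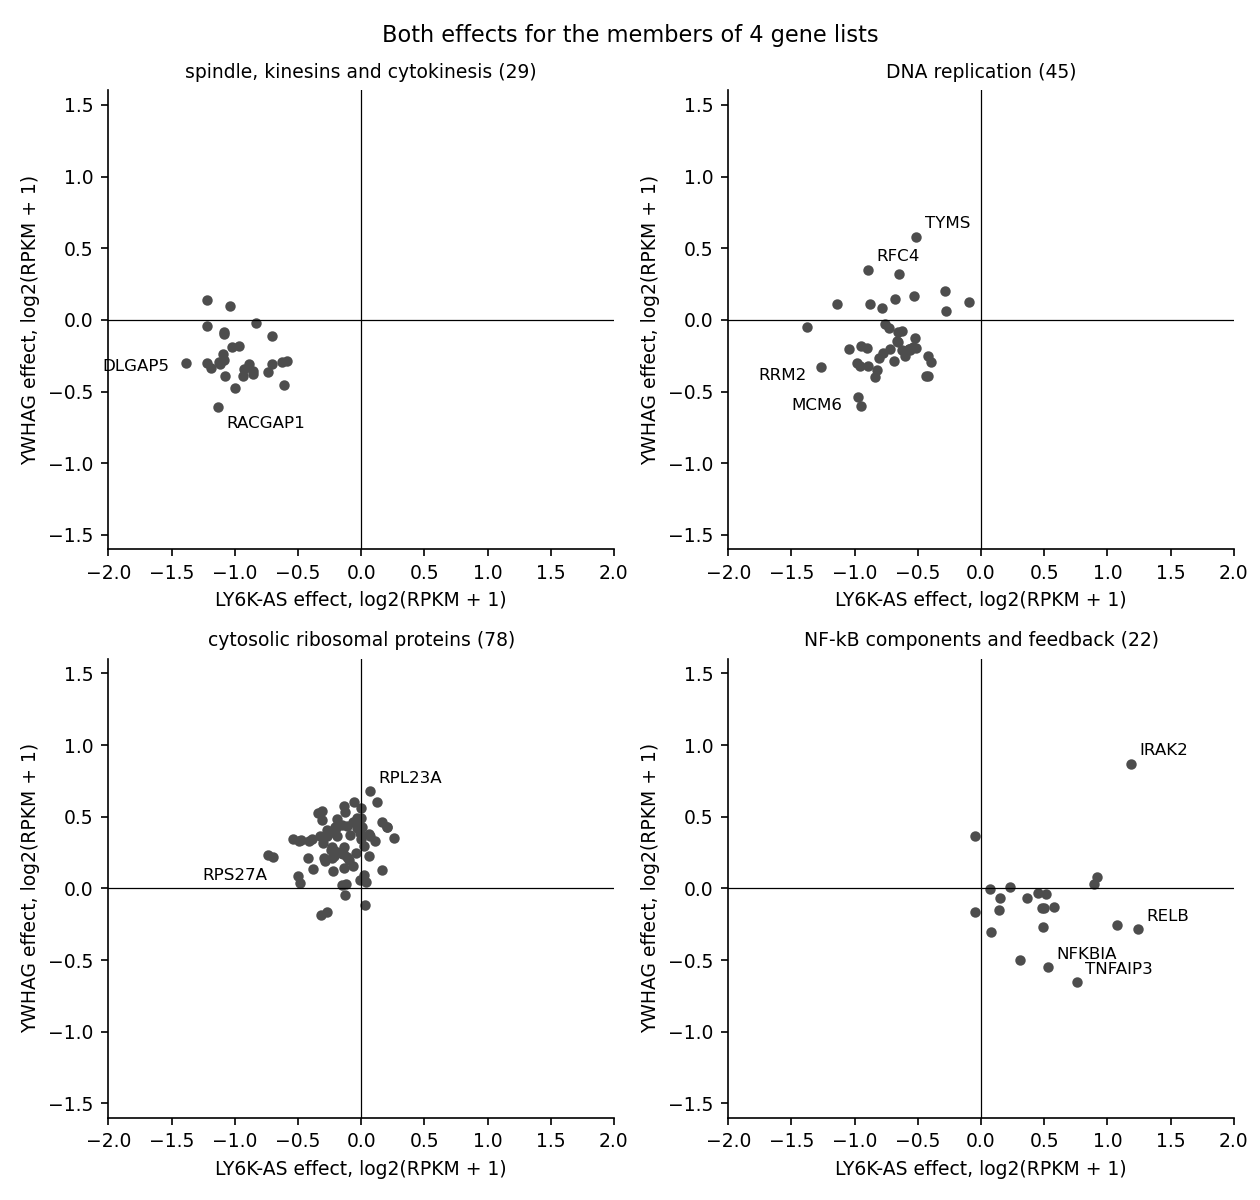
Each panel plots the LY6K-AS effect (horizontal axis) against the YWHAG effect (vertical axis) of the measured members of 1 list, both log2 on the RPKM + 1 scale: 29 spindle, 45 replication, 78 ribosomal protein and 22 NF-kB genes. Spindle members gather at the lower left, ribosomal members at the upper left close to 0, and NF-kB members mostly at the right, below 0 or near it.

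Chemokines had mixed values. The 13 measured had medians of 0.36 and 0.05. CXCL8, the neutrophil chemokine interleukin 8, had 1.20 and 1.11 RPKM in the LNA controls, 2.72 and 3.43 after LY6K-AS knockdown, 16.2 and 15.6 in the siRNA controls and 14.5 and 4.24 after YWHAG knockdown. Its effects of 0.91 and -0.90 had opposite signs, unlike those of CXCL5, but the difference of 1.82 ± 0.61 did not pass (limma adjusted p = 0.169). The 23 interferon-stimulated genes had YWHAG medians of 0.37 and -0.56 in the single libraries, which disagree in sign. Of the 11 genes of MHC class I presentation, 5 had an unadjusted p under 0.05 as higher in the mean, beside 10.8% of all genes, with medians of 0.02 and 0.28. TAP1, a subunit of the peptide transporter, went from 2.18 and 2.30 to 3.04 and 3.87 and from 3.52 and 3.35 to 4.66 and 4.12 RPKM, with a mean of 0.37 ± 0.09 (adjusted p = 0.0887), and overlaps PSMB9.

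The amino acid response and glycolysis lists had medians near 0 after LY6K-AS knockdown and above 0 after YWHAG knockdown, with 1 YWHAG library well above the other in each. The 24 genes of the ATF4 response had medians of -0.03 and 0.43, and 3 passed as higher in the YWHAG effect, where 1.09% of all genes did. The single YWHAG libraries gave medians of 0.07 and 0.62. STC2, a secreted stanniocalcin, went from 9.36 and 9.53 to 9.06 and 11.7 RPKM after LY6K-AS knockdown and from 5.89 and 6.21 to 22.7 and 13.7 after YWHAG knockdown (YWHAG effect 1.41 ± 0.23, limma adjusted p = 0.0373). SLC7A11, the cystine transporter, went from 38.5 and 40.03 to 34.4 and 28.4 and from 16.3 and 15.6 to 27.3 and 31.3 (0.84 ± 0.13, adjusted p = 0.0373). VLDLR, a lipoprotein receptor, went from 4.26 and 4.26 to 3.23 and 2.28 and from 3.15 and 3.05 to 8.25 and 7.12 (1.08 ± 0.15, adjusted p = 0.0263). In SLC7A11 and VLDLR the LY6K-AS libraries lay below their controls, but the differences of -1.15 and -1.58 did not pass (adjusted p = 0.0625 and 0.0526), nor did that of STC2 (-1.29, adjusted p = 0.113).

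Of 30 genes of glycolysis and hypoxia, 26 were higher after YWHAG knockdown, beside 42% of all genes, with medians of -0.02 and 0.32, but the single YWHAG libraries gave 0.55 and 0.04. ERO1A, an oxidase of the endoplasmic reticulum induced by hypoxia, went from 12.7 and 12.6 to 12.7 and 11.6 RPKM and from 12.5 and 12.7 to 20.5 and 20.7, and its YWHAG effect passed (0.67 ± 0.11, limma adjusted p = 0.0367). GAPDH, often used as a reference gene, had a YWHAG effect of 0.56 ± 0.14 that did not pass (adjusted p = 0.104) beside 0.04 ± 0.14 after LY6K-AS knockdown. The difference passed for 0 genes of the list. The 6 at an unadjusted p under 0.05 were all lower, as were 8.86% of all genes, and 20.4% of all genes had one in either direction.

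Matrix and lung lists had medians above 0 in both effects. The 27 collagens, laminins and integrins had medians of 0.12 and 0.37 (0.71 and 0.12 in the single YWHAG libraries), and 0 passed in the mean. The 8 at an unadjusted p under 0.05 were all higher, as were 10.8% of all genes, and 25.2% of all genes had one in either direction. LAMA5, a laminin chain, had effects of 0.32 and 0.95 and a mean of 0.63 ± 0.18 (limma adjusted p = 0.099), and overlaps ADRM1. Of 15 genes of lung lineage, surfactant and mucin, 9 were higher in both effects, beside 21.9% of all genes, with medians of 0.30 and 0.30. The single libraries gave 0.04 and 0.61 for LY6K-AS and 0.33 and 0.09 for YWHAG, and with the GC trend removed the LY6K-AS median was 0.16. ABCA3, a lipid transporter of lamellar bodies, had 12.8 and 13.9 RPKM in the LNA controls, 20.6 and 30.9 after LY6K-AS knockdown, 4.49 and 4.49 in the siRNA controls and 10.7 and 4.51 after YWHAG knockdown. The second YWHAG library was level with its controls, and the mean of 0.71 ± 0.24 did not pass (adjusted p = 0.134). KRT19 had 1.39 and 0.46, with a mean that did not pass (adjusted p = 0.0618). CDH1, the E-cadherin of epithelial junctions, had effects of -0.20 and 1.25, and its difference of -1.45 ± 0.24 did not pass (adjusted p = 0.0602). It overlaps the pseudogene FTLP14. COL6A1, a collagen VI chain, had 1.05 and -0.59, and its difference of 1.64 ± 0.27 did not pass either (adjusted p = 0.0634).

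At an unadjusted p under 0.05 in each single effect, the overlap was greatest among genes lower in both. It held 211 genes, 14.6% of the 1447 lower after LY6K-AS and 13.9% of the 1516 lower after YWHAG knockdown. The overlap of genes higher in both held 136, 8.80% of 1545 and 12.3% of 1105. The opposite overlaps held 106 genes lower after LY6K-AS and higher after YWHAG knockdown (7.33% and 9.59%) and 132 of the reverse (8.54% and 8.71%). For each share the background is the share of all genes in the other list, 11.3 and 11.8% for lower and 12 and 8.59% for higher. Median GC content was 44.2% in the genes lower in both and 58.4% in those higher in both, against 48.2% over all genes. It was 41.7% in genes lower and then higher and 56.8% in genes higher and then lower, so it followed the sign of the LY6K-AS effect.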

How the data were processed

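RNA was sequenced in 8 libraries. Per the submitters' processing notes the tools were STAR, featureCounts, Subread and Picard, with the build hg38 and no versions or roles; nothing says whether counting used strand. The authors deposited RPKM values in 2 tables, 1 for LNA and 1 for siRNA libraries. Multiplying RPKM by gene length showed the divisor: whole reads within 0.05 came out for 100% of values with the genomic span in the LNA table and merged exon length in the other, and for at most 33.0% when the lengths were swapped. LNA values were therefore rescaled to merged exon length with GENCODE 29, which matched 57055 of 66206 identifiers, and the 9151 others were left out. Lengths of 52238 identifiers were of the same version.

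Genes with RPKM of at least 0.5 in 2 libraries of each table entered a limma 3.58.1 trend fit (R 4.3.3) of log2(RPKM + 1) on 4 group means, with 4 residual degrees of freedom and two-sided tests. Gene lists were described by counts and medians only. At these depths 3 reads are 0.0868 to 0.115 RPM. The siRNA control columns are numbered 2 and 3 and were assigned to their group only. Only the LNA libraries could be paired by number. The deviations of their controls and knockdowns had an r of 0.11 over genes, and with 2 pairs this does not establish a pairing, so the fit has no block.

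The members and lists were chosen with earlier results of these data known. Named were, per direction, the 10 genes with the largest smaller-of-both effects past the threshold in the mean or the difference, with all knockdown libraries beyond their controls and at least 2 RPKM, filled up by p; the 8 genes of smallest p in the difference; and, per list, the 3 genes of smallest p in the difference and in the mean. PPIH, CCNB1, TOP2A, FAS, MDM2, RELB, EZH2 and HELLS were chosen after their values were seen. A gene of the naming rule is not reported here. PDCD4 and FAM89A complete the genes that passed, and KPNA2, CEP55 and RFC3 were taken for the motifs in their promoters. Alternatives changed the pseudocount, filter, rescaling, centring, read model, GC trend, mitochondrial totals, block, pooling of the spread and each library in turn.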

Additional observations from a re-analysis of the deposited data

Results flagged for a closer look

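The LY6K-AS and YWHAG effects differed by limma's test of the difference itself in 23 genes, and those are given here as log2 differences, LY6K-AS effect minus YWHAG effect. The named protein-coding genes come first. Higher after LY6K-AS knockdown were SFN at 1.56, ACTL8 at 1.49 and SHISA4 at 1.38. Furthest below 0 were LCLAT1 at -2.0, UBE2V2 at -1.99, CYCS at -1.92, TBC1D5 at -1.86, SETD7 at -1.84, GNPNAT1 at -1.81 and NBN at -1.73. Nearer to 0 were KLHL2 at -1.62, TAF9B at -1.58, PTK2 at -1.58, GALNT2 at -1.47, NCAPD2 at -1.36, FAM89A at -1.27, FITM2 at -1.27 and PDCD4 at -1.22.

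The other 5 are small RNAs, a pseudogene and clone loci. SNORD69, a small nucleolar RNA, had 11 and 10 reads in the LNA controls against 23 and 23, and 12 and 10 in the siRNA controls against 3 and 3, a difference of 2.40 ± 0.18 (limma adjusted p = 0.0208) that rests on few reads. MIR6812 had 1 to 4 reads in the other libraries and 0 in both YWHAG libraries, so its fitted difference of 1.67 depends on the pseudocount and its short length. AL391121.1 went from 5.37 and 4.999 to 17.9 and 14.6 RPKM after LY6K-AS knockdown and from 0.602 and 0.602 to 0.622 and 0.395 after YWHAG knockdown, a difference of 1.56 ± 0.20 (adjusted p = 0.0492). The pseudogene RPL13P12 had -1.50 and AC245041.1 -1.59, and reads of both may be shared with near copies.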

How the results depend on the processing

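Counts at an adjusted p under 0.05 (limma, main 23 for the difference, 117 for the mean, 64 for LY6K-AS and 214 for YWHAG) depended on the setting. For the difference they were 81 with no filter, 72 with a minimum of 2 RPKM and 44 with LNA values as deposited. With the GC trend removed 16 passed, 3 higher and 13 lower. With mitochondrially encoded genes left out of the totals 5 passed. For the mean they were 72 with a pseudocount of 0.1, 262 with the minimum of 2 RPKM and 224 with voom on recovered reads. For LY6K-AS they were 181 with no filter and 117 with the minimum of 2 RPKM. They were 0 with a pseudocount of 0.1 or 0.5, values as deposited, the GC trend removed, mitochondrial totals left out, or a fit in its own table, with 2827, 2921, 1718, 2154, 2876 and 3338 genes at an unadjusted p under 0.05. For YWHAG they were 79 with no filter, 332 as deposited and 0 in its own table (2145 at an unadjusted p under 0.05). Centring each library on its median moved the split of the mean from 55 higher and 62 lower to 73 and 54.

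With the replicate block in the LNA table, where the numbers come from the labels, the counts were 0, 0, 0 and 44, with 2417, 2959, 2841 and 2365 genes at an unadjusted p under 0.05. Leaving out 1 library gave 0 to 1185 for the difference, 0 to 2014 for the mean, 0 to 1907 for LY6K-AS and 0 to 1348 for YWHAG, with 1151 to 4512 genes at an unadjusted p under 0.05. They were 0 without any 1 control, and for the first 3 also without the second LY6K-AS library. The libraries of a group differed by unlike amounts. The standard deviation over genes of their log2 difference was 0.13 in LNA controls and 0.39 in LY6K-AS libraries. It was 0.18 in siRNA controls and 0.43 in YWHAG libraries. The shared spread behind the standard errors joins these groups, and its part in these counts was not tested. Where a group is left with 1 library, that library is assumed to vary like the others.

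Of 916 values of 51 genes of the naming rule under these settings, 564 kept their direction and side of the threshold, 309 kept the direction only and 43 newly passed. None turned its direction. Of list medians beyond 0.1, the YWHAG medians of the replication, recombination, NRF2 and replication-dependent histone lists turned sign without the first YWHAG library, and that of the NF-kB list without the second. LY6K-AS medians turned for the epithelial-mesenchymal and mitochondrially encoded lists without the second LY6K-AS library, for the BCL2 family and keratins with the GC trend removed, and for RAF, FOXO and TSC clients with the minimum of 2 RPKM.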

Other observations

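Chromatin and lysosome genes gave values beyond the comparisons above. Of 20 variant histones and high mobility group genes, 13 were lower in both effects and 7 had all 4 knockdown libraries below their controls, beside 32.1% and 11.7% of all genes, with medians of -0.32 and -0.10. HMGB2, a DNA-bending protein of dividing cells, had 22.98 and 21.8 RPKM in the LNA controls, 10.03 and 8.94 after LY6K-AS knockdown, 38.5 and 39.1 in the siRNA controls and 31.9 and 27.4 after YWHAG knockdown, and its mean of -0.77 ± 0.09 passed (limma adjusted p = 0.0404). EZH2, the methyltransferase of the Polycomb complex, went from 13.1 and 11.9 to 6.19 and 6.27 RPKM and from 11.9 and 10.3 to 7.48 and 7.73, with a mean of -0.69 ± 0.08 (adjusted p = 0.0404). HELLS, a chromatin remodeller, went from 7.20 and 7.62 to 3.41 and 3.42 after LY6K-AS knockdown but from 5.78 and 6.05 to 5.61 and 5.79 after YWHAG knockdown, where the groups lay close together.

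Of 32 lysosome and autophagy genes, 14 were higher after LY6K-AS and lower after YWHAG knockdown, 7 of them with all libraries beyond their controls, beside 25.9% and 8.3% of all genes. The medians were 0.33 and -0.08. The LY6K-AS median was 0.16 with the GC trend removed, and the single YWHAG libraries gave 0.02 and -0.22. MCOLN1, a calcium channel of the lysosome, had effects of 0.53 and -0.13 and a difference of 0.66 ± 0.18 (not past the threshold, limma adjusted p = 0.124), and overlaps PNPLA6. Of 74 mitochondrial ribosomal proteins 33 were lower in both and 23 lower and then higher, beside 32.1% and 20.1% of all genes, with medians of -0.15 and -0.02. SKA2, a kinetochore microtubule protein, was lower after LY6K-AS (20.4 and 22.1 to 13.2 and 8.98 RPKM) and higher after YWHAG knockdown (13.5 and 13.96 to 28.9 and 22.6), a difference of -1.75 ± 0.27 (adjusted p = 0.0578). TYMS, thymidylate synthase, and RFC4, of the clamp loader, had opposite signs too, with differences of -1.09 and -1.25 (adjusted p = 0.0747 and 0.0682). SKA2, TYMS and RFC4 overlap AC099850.1, ENOSF1 and EIF4A2, among others, so reads there cannot be told apart. SNHG8, a snoRNA host gene, was higher in both by near equal amounts, 0.45 and 0.46, with a mean that did not pass (adjusted p = 0.0783).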
